A study of Mus musculus with 6 samples.

Results

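The genes described here are 8 members of macrophage arginine, nitric oxide and itaconate metabolism, taken by name from a table of 55536 named mouse genes. They are the arginine transporter Slc7a2, the arginases Arg1 and Arg2, the inducible nitric oxide synthase Nos2, the argininosuccinate enzymes Ass1 and Asl, the ornithine decarboxylase Odc1 and Acod1, the enzyme that makes itaconate. Total RNA was sequenced from C57BL/6 mice aged 8 weeks, with 1 library for each of 6 groups. One group was bone marrow cells (BM). The others were cultured from marrow for 7 days, either with M-CSF (called M-BMDM) or with GM-CSF (called GM-BMDM). M-BMDM received no interleukin-6 (IL6), IL6 for 3 h or IL6 for 24 h, and GM-BMDM received none or IL6 for 3 h. BM and each macrophage type without IL6 carry the label control, and the labels give neither the dose of IL6 nor whether animals were pooled. No group had a replicate, so no p-value is given, and every interval below covers counting error only.

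Arginine enters macrophages through cationic amino acid transporters, of which Slc7a2 (CAT2) is the one induced on activation. Inside the cell, Nos2 turns it into nitric oxide and citrulline, while the arginases turn it into urea and ornithine. Ass1 and Asl rebuild arginine from citrulline, and Odc1 turns ornithine into putrescine, from which the polyamines are made. Acod1 sits in mitochondria and converts cis-aconitate of the citric acid cycle into itaconate, which inhibits succinate dehydrogenase. High Nos2 and Acod1 are textbook marks of macrophages activated by microbial products and interferon, and high Arg1 is a mark of alternative activation in the mouse.

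Library totals over named genes lay between 18511777 and 24134374 counts. All 8 genes were among the 14719 genes that reached 1 CPM in at least 1 library. Levels below are scaled CPM, a count relative to the library's total after TMM adjustment of the totals for differences in composition. Macrophage markers were present in every culture, with a summed level of 25929 to 47043 scaled CPM for 8 genes, against 5581 in BM. Neutrophil markers summed to 36021 in BM and to 10.8 to 12.1 in the M-CSF cultures. In the GM-CSF cultures they summed to 533 and 574 with 2 of 9 genes at 5 scaled CPM or more, although Ly6g and Retnlg were at 0 counts there. Dendritic cell markers summed to 39.7 and 41.5 in the GM-CSF cultures, with 2 of 6 genes at 5 scaled CPM or more. In the M-CSF cultures they summed to at most 1.77. The library at 24 h of IL6 stood apart from the other cultures in its proliferation markers, which summed to 2033 scaled CPM. They summed to 288 in M-BMDM and 279 after 3 h, to 389 and 359.6 in the GM-CSF cultures, and to 2431 in BM. In these bulk samples fewer cells of a type and less RNA per cell cannot be told apart.

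RefSeq promoter windows, from 250 bases before to 50 bases after the start of transcription on GRCm38.p6, were found for 3 of the 8 genes, Acod1, Ass1 and Odc1. They are shown because they were the only members with a window in the promoter source used here. These 3 enzymes were counted as lower after 24 h of IL6, but so were Slc7a2, Arg1 and Arg2, for which no window was found. Both strands were searched for GGG and CC with any 5 bases between them (a loose NF-kappaB motif), GAAA and GAAA with any 2 bases between them (interferon response), TTCNNNGAA (STAT), TTGCNNAA (a loose C/EBP motif) and CACGTG (E box), and capitals mark every match. The windows are chr14:103046762-103047061 for Acod1, chr2:31470020-31470319 for Ass1 and chr12:17544623-17544922 for Odc1, all on the plus strand.
Acod1: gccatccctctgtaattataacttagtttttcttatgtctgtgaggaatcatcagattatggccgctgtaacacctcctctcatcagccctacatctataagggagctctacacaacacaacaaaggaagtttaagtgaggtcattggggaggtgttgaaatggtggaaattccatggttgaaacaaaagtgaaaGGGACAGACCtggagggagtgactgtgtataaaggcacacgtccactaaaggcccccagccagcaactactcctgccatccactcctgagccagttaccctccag
Ass1: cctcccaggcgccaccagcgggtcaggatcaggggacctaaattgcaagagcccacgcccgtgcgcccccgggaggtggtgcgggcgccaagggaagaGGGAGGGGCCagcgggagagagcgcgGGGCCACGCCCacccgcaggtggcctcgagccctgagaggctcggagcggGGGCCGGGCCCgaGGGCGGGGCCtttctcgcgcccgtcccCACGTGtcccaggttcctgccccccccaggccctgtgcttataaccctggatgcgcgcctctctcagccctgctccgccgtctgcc
Odc1: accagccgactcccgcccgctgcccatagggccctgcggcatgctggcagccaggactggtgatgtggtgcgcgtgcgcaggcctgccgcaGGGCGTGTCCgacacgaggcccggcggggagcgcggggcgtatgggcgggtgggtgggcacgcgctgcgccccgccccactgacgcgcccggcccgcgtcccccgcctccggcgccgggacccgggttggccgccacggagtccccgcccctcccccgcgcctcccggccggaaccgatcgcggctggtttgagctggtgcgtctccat
The window of Acod1 held 1 match, GGGACAGACC, which begins 55 bases before the start, and that of Odc1 held 1, GGGCGTGTCC, which begins 159 bases before it. The window of Ass1 held the NF-kappaB letters at 6 places on the 2 strands, some of them overlapping, and CACGTG at 36 bases before the start. These are RefSeq starts, which lie downstream of the GENCODE starts in the gene positions given below. The CACGTG of Ass1 lies downstream of its GENCODE start. The windows differed in composition, with 47.0% G and C for Acod1, 74.0% for Ass1 and 78.0% for Odc1. Of all 32851 windows in the table, 50.8% held the NF-kappaB letters and 7.2% held CACGTG. The interferon, STAT and C/EBP letters, held by 3.4%, 8.3% and 10.8% of all windows, were in none of the 3. A match is a description of these letters only.

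**Figure D1:**
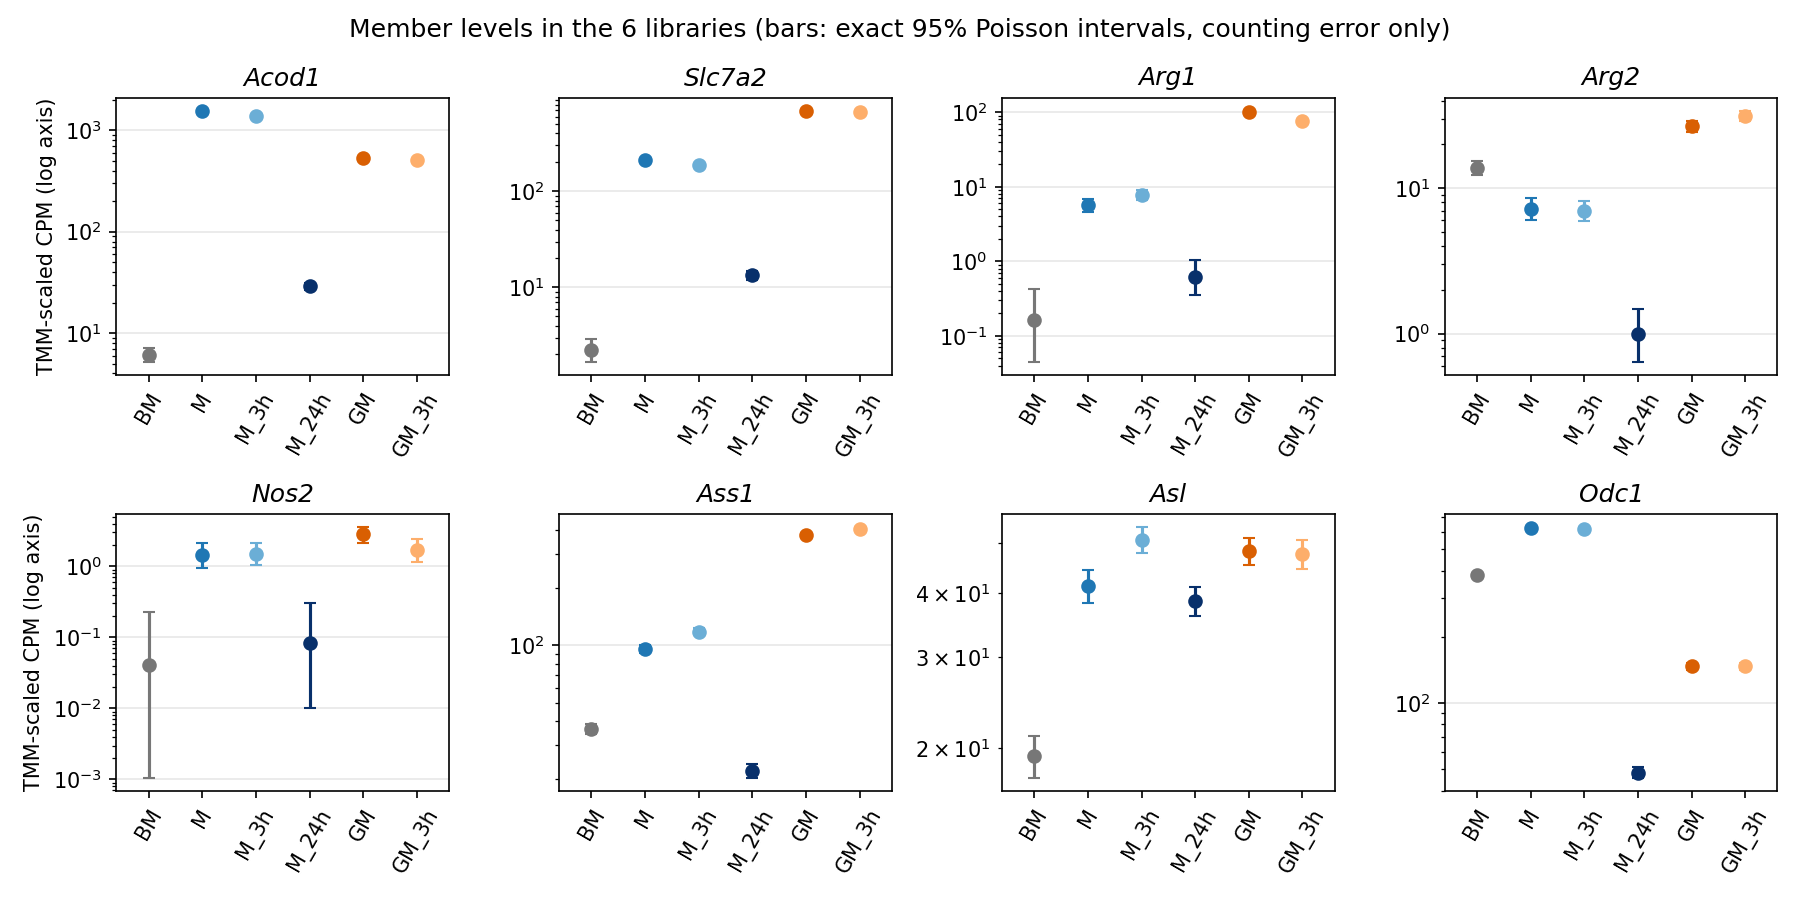
Level of each gene in the 6 libraries, in TMM-scaled CPM on a log axis whose range differs between panels; bars are exact 95% Poisson intervals. Acod1 and Odc1 were highest in M-BMDM (1548 and 622), Slc7a2, Arg1 and Nos2 in GM-BMDM (682, 101 and 2.81), and all but Asl were far lower in the M-CSF culture at 24 h of IL6 than at 3 h.

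Slc7a2 (ENSMUSG00000031596, chromosome 8, 40862396 to 40922308, plus strand, GRCm38) had 2.22 scaled CPM in BM, 209.9 in M-BMDM, 188 at 3 h and 13.4 at 24 h of IL6, 682 in GM-BMDM and 662 in GM-BMDM after 3 h. The GM-CSF cultures were the highest and marrow the lowest, a span of 307-fold. Each step in the order of its levels had a counting interval that excluded equality, but GM-BMDM with and without IL6 were only 1.03-fold apart. A noncoding gene on the other strand, Gm26584, overlaps it over 3252 bases, and its counts were 3 in BM, 322, 294 and 62 in M-BMDM at 0, 3 and 24 h, and 772 and 625 in GM-BMDM. Whether counting used strand is not given in the sources used here, so reads of the overlap cannot be told apart.

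Arg1 (ENSMUSG00000019987, chromosome 10, 24915221 to 24927484, minus strand), the cytosolic arginase, had 4 counts in BM, or 0.165 scaled CPM. It had 5.64 in M-BMDM, 7.75 at 3 h and 0.623 at 24 h of IL6, 101 in GM-BMDM and 75.2 in GM-BMDM after 3 h. The highest library, GM-BMDM, was 611-fold above the lowest, the widest span of the 8 genes. Arg2 (ENSMUSG00000021125, chromosome 12, 79130777 to 79156301, plus strand), the mitochondrial arginase, had 13.8 scaled CPM in BM, 7.20 in M-BMDM, 6.98 at 3 h and 0.996 at 24 h, and 26.6 and 31.5 in GM-BMDM without and with IL6. Unlike Arg1, it was lower in M-BMDM than in marrow. Arg2 overlaps Vti1b on the other strand by 285 bases, and its deposited counts were not whole numbers in 5 of the 6 libraries.

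Per kilobase of transcript, Arg1 made up 1.14% of the arginase level in BM (95% Clopper-Pearson interval 0.311 to 2.89). It made up 43.1% (36.8 to 49.6) in M-BMDM, 51.8% (46.2 to 57.3) after 3 h and 37.7% (22.8 to 54.5) after 24 h. In GM-BMDM the share was 78.5% (76.9 to 80.0), and after 3 h of IL6 it was 69.8% (67.7 to 71.8). The arginase transcripts of marrow were thus nearly all Arg2, those of M-CSF cultures a mixture, and those of GM-CSF cultures mostly Arg1. Summed over both genes, the arginase level per kilobase was 86.8 scaled CPM for GM-BMDM, 9.79 for BM and 8.86 for M-BMDM. M-BMDM and BM thus held a similar sum with different shares of the genes. Arg2 was the larger part in both, at 9.68 in BM and 5.04 in M-BMDM.

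Nos2 (ENSMUSG00000020826, chromosome 11, 78920787 to 78960254, plus strand) was barely detected in any library. It had 1 count in BM, 27 in M-BMDM, 33 at 3 h and 2 at 24 h of IL6, and 61 and 31 in GM-BMDM without and with IL6. These are 0.0411 to 2.81 scaled CPM, all under the level of 5 that was required before a difference was counted. Per kilobase, Arg1 stood 11.0-fold above Nos2 in M-BMDM (95% interval 7.17 to 17.5) and 102-fold above it in GM-BMDM (78.9 to 134). Acod1, which shares with Nos2 its induction by microbial products, had 590.1 scaled CPM per kilobase in M-BMDM, where Nos2 had 0.346.

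Ass1 (ENSMUSG00000076441, chromosome 2, 31470207 to 31520672, plus strand) joins citrulline to aspartate, the slow step of arginine resynthesis. It had 36.5 scaled CPM in BM, 95.3 in M-BMDM, 118 at 3 h and 22.0 at 24 h of IL6, and 376 and 406 in GM-BMDM without and with IL6. Asl (ENSMUSG00000025533, chromosome 5, 130011258 to 130029247, minus strand) splits the product into arginine and fumarate. It had 19.3 in BM, 41.2 in M-BMDM, 50.6 at 3 h and 38.5 at 24 h, and 48.2 and 47.5 in GM-BMDM. The levels of Ass1 thus spanned 18.5-fold, while those of Asl spanned 2.63-fold, the narrowest range of the 8 genes. For Asl, GM-BMDM, its 3 h library and that of M-BMDM could not be ordered beyond counting error, and neither could M-BMDM and its 24 h library.

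Odc1 (ENSMUSG00000011179, chromosome 12, 17544794 to 17551505, plus strand) commits ornithine to polyamines and is known as a MYC target of growing cells. It had 381 scaled CPM in BM, 622 in M-BMDM, 619.6 at 3 h and 48.3 at 24 h of IL6, and 147 and 148 in GM-BMDM. It was the only one of the 8 with a lower level in GM-BMDM than in marrow. Acod1 (ENSMUSG00000022126, chromosome 14, 103046977 to 103056573, plus strand) had 6.13 in BM, 1548 in M-BMDM, 1377 at 3 h and 28.9 at 24 h, and 535 and 512 in GM-BMDM. Per kilobase it ranked 102 of 14719 genes in M-BMDM, 382 in GM-BMDM, 5662 in the 24 h library and 10239 in BM. Both genes were thus abundant in macrophages that had received no microbial stimulus named in the labels.

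M-BMDM were compared with marrow, whose neutrophil and erythroid markers summed to 36021 and 47229 scaled CPM, against 12.1 and 6.23 in M-BMDM. Loss of other cells, time in culture and macrophage differentiation cannot be told apart in this comparison. Certain conditions had to hold before a difference was counted: a ratio of at least 2-fold, a 95% interval clear of equality, and no less than 5 scaled CPM in whichever library was higher. Of the 8 genes, 7 reached that level, and 5 were counted as higher in M-BMDM and 0 as lower, where 20.1% of 11245 genes were counted as higher and 23.0% as lower. These were Acod1 (log2 ratio 7.98, 95% interval 7.75 to 8.22), Slc7a2 (6.56, 6.18 to 6.98), Arg1 (5.10, 3.70 to 7.00), Ass1 (1.38, 1.27 to 1.5) and Asl (1.10, 0.93 to 1.27). Acod1 had the 17th highest ratio of all genes tested when ratios were ranked with a prior count of 2. Odc1 was 0.71 (0.67 to 0.75) and Arg2 was -0.94 (-1.24 to -0.65), both under 2-fold. Nos2 had a ratio of 5.14 with an interval of 2.54 to 10.49, since it rests on 1 count in marrow. With total counts as the scale, Asl was at 0.93 and no longer counted, and Arg2 was at -1.11 and counted as lower.

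Genes around these enzymes were compared between M-BMDM and marrow as well, where 20.1% of all genes tested were higher and 23.0% lower. Of 10 tested genes of arginine transport and use, 6 were higher and 1 was lower, with a median log2 ratio of 1.30 against 0.03 over all genes tested. They included Slc3a2, the heavy chain shared by several amino acid transporters (402 against 97.7 scaled CPM, log2 ratio 2.04), the y+L transporter Slc7a7 (1.72), Gamt, an enzyme of creatine synthesis (2.61), and Azin2, a homologue of Odc1 that acts on its antizymes (2.25). Of 10 genes of nitric oxide signalling and its cofactor tetrahydrobiopterin, 4 were higher and 3 lower. Gucy1a1 and Gucy1b1, the subunits of the nitric oxide receptor guanylate cyclase, had 138 and 275 counts in BM and 0 in M-BMDM, at least 35.2-fold and 70.2-fold lower against 3 counts in that library. Nostrin, an adaptor of endothelial nitric oxide synthase, was higher (3.24), as was Cyb5r3, a cytochrome b5 reductase (2.06).

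In the other lists most genes stayed under 2-fold between M-BMDM and marrow. Over all genes tested, 20.1% were higher and 23.0% lower. Of 26 citric acid cycle genes, 3 were higher and 0 lower, namely the citrate carrier Slc25a1 (1.38), the cytosolic aconitase Aco1 (1.14) and the cytosolic isocitrate dehydrogenase Idh1 (1.00). Of 16 polyamine genes 3 were higher and 2 lower, among them Mtap (1.84) and Mat2a (1.29), which salvage and supply methionine and its adenosyl form, Sat1, which acetylates polyamines for export (-1.43), and the antizyme Oaz2 (-1.22). Of 8 genes leading from ornithine to proline and glutamate, Aldh4a1 (-1.58) and Prodh (-1.01), the enzymes of proline breakdown, were lower and 0 were higher. Of 14 transcription factors known to act on these genes, 6 were higher and 0 lower, led by Hif1a (3.75), Cebpb (3.42), Nfe2l2 (1.92) and Nfkb1 (1.38).

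GM-CSF macrophages had the same 5 genes counted as higher than marrow as M-CSF macrophages, at other levels, and Odc1 was counted as lower. In GM-BMDM against BM, 5 of the 8 genes were counted as higher and 1 as lower, where 19.8% of 11367 genes were higher and 22.3% lower. With total counts the calls over all genes were 1692 higher and 3450 lower, in place of 2250 and 2534, while the 8 genes gave 4 higher and 1 lower. Slc7a2 (8.26, 7.88 to 8.68), Arg1 (9.26, 7.90 to 11.13), Acod1 (6.45, 6.21 to 6.69), Ass1 (3.36, 3.26 to 3.46) and Asl (1.32, 1.17 to 1.48) were higher, and Odc1 was lower (-1.37, -1.43 to -1.31). Arg2 was at 0.95 (0.75 to 1.14), and Nos2 at 6.09 (3.56 to 11.42) with 1 count in marrow. The marrow library is shared with the comparison of M-BMDM, so the values stand side by side only.

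In GM-BMDM against M-BMDM, 4 of 7 tested members were counted as higher and 2 as lower, where 10.8% of 10495 genes were higher and 8.64% lower. Over all genes these were 1134 and 907, or 904 and 1191 with total counts, which left the counts of the 8 genes as they were. The transporter Slc7a2, both arginases and Ass1 were on the higher side, with Arg1 at 4.16 (3.87 to 4.45), Ass1 at 1.98 (1.91 to 2.05), Arg2 at 1.89 (1.61 to 2.17) and Slc7a2 at 1.70 (1.65 to 1.75). Odc1 (-2.08, -2.13 to -2.02) and Acod1 (-1.53, -1.56 to -1.50) were lower. Asl was at 0.23 (0.09 to 0.36), and Nos2, below the required level, was at 0.95 (0.28 to 1.66).

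The libraries given IL6 for 3 h offered the same comparison in other RNA samples, although the labels do not say whether they came from separate cultures. There again 4 members were higher and 2 lower, where 10.6% of 10449 genes were higher and 8.06% lower. The genes were the same, with Arg1 at 3.28 (3.05 to 3.52), Arg2 at 2.17 (1.92 to 2.44), Slc7a2 at 1.81 (1.76 to 1.87), Ass1 at 1.78 (1.72 to 1.85), Acod1 at -1.43 (-1.46 to -1.39) and Odc1 at -2.07 (-2.13 to -2.01). The values of Arg1 in the 2 pairs differed by 0.88 on the log2 scale, and those of Odc1 by 0.01. Asl (-0.09, -0.22 to 0.04) and Nos2 (0.18, -0.58 to 0.93) had intervals that included 0.

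**Figure D2:**
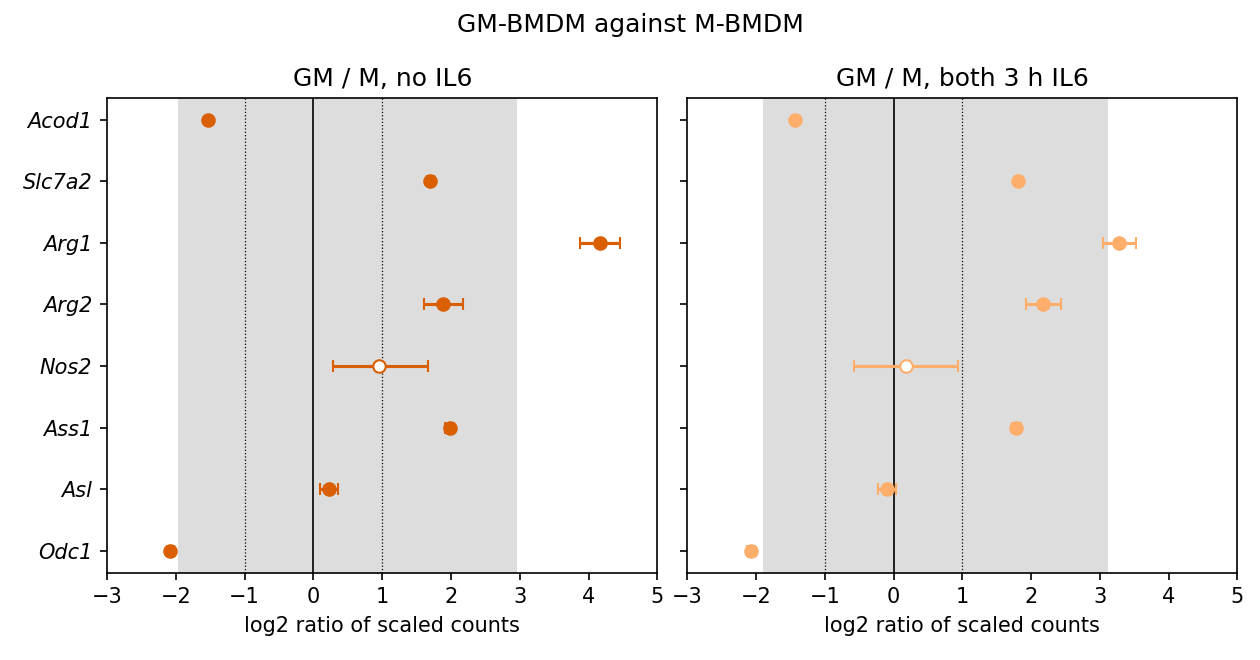
Log2 ratio of scaled counts, GM-BMDM over M-BMDM, without IL6 (left) and after 3 h of it (right), with 95% counting intervals; grey bands hold the central 95% of all genes with at least 5 scaled CPM, dotted lines mark 2-fold and open symbols a gene under that level. Arg1 (4.16 and 3.28) and Odc1 (-2.08 and -2.07) lay outside the band in both panels.

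Of 16 polyamine genes tested between the cultures, 1 was higher and 4 were lower in GM-BMDM, where 10.8% of all genes were higher and 8.64% lower. The same numbers of polyamine genes were counted in the 3 h pair. Srm and Sms, which make spermidine and spermine downstream of Odc1, were at -1.53 and -1.40, and Mat2a at -1.18, while Sat1 was at 1.45. Their scaled CPM with GM-CSF and with M-CSF were 23.0 and 66.4 for Srm, 24.3 and 64.0 for Sms, and 173 and 63.2 for Sat1. Of 10 genes of arginine transport and use, Nags was higher and Azin2 lower (-1.09), and the list's median log2 ratio was -0.50, against -0.03 over all genes. Other amino acid transporters of the list were below 0 without reaching the 2-fold limit, with Slc7a1 at -0.82 (-0.91 to -0.73), Slc7a6 at -0.54, Slc7a7 at -0.46 and Slc3a2 at -0.26, whereas Slc7a2 was at 1.70. Nags, which makes the activator of the urea cycle's first enzyme in liver, had 272 counts in GM-BMDM and 0 in M-BMDM, at least 77.7-fold higher against 3 counts. In the 3 h pair it was at 5.55 (4.17 to 7.45), with 4 counts in the M-CSF library. Azin2 was below the required level in that pair, at -0.52 (-0.99 to -0.06).

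Of 8 nitric oxide and cofactor genes, Pts, an enzyme of tetrahydrobiopterin synthesis, was higher in GM-BMDM (1.06, or 2.08-fold). In the 3 h pair it was at 0.88 (0.66 to 1.11), or 1.84-fold, under the 2-fold limit, and 0 of the 8 were counted. No citric acid cycle gene of 26 was counted in either pair, and the list's median log2 ratio was 0.35 without IL6, against -0.03 over all genes. Of 8 genes from ornithine to proline and glutamate, Aldh4a1 was higher (1.48 and, in the 3 h pair, 1.54). Of 14 transcription factors, Klf4, a factor of alternative activation, was higher (1.20), and Hif1a (-1.43), Myc (-1.38) and Nfkb1 (-1.28) were lower, and the same 4 were counted in the 3 h pair. Summed marker levels of other cells also differed: neutrophil markers summed to 533 scaled CPM with GM-CSF and 12.1 with M-CSF, and dendritic cell markers to 39.7 and 1.77. Only 2 of 9 neutrophil and 2 of 6 dendritic cell markers reached 5 scaled CPM with GM-CSF. The part of other cells in the ratios of the 8 genes was not tested.

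After 3 h of IL6 none of the 8 genes was counted as higher or lower in either macrophage type. Over all genes, 0.0906% of 9937 were counted as higher and 0.272% as lower in M-BMDM, and 0.0585% of 10255 as higher and 0.107% as lower in GM-BMDM. In M-BMDM the ratios ran from -0.17 for Acod1 (-0.19 to -0.15) to 0.46 for Arg1 (0.10 to 0.82). Ass1 (0.31, 0.22 to 0.40) and Asl (0.30, 0.16 to 0.43) had intervals above 0, and Odc1 was level at 619.6 and 622 scaled CPM. In GM-BMDM Arg1 was lower by less than 2-fold (-0.42, -0.52 to -0.32), Arg2 was at 0.24 (0.07 to 0.41), Ass1 at 0.11 (0.07 to 0.16) and Nos2 at -0.73 (-1.40 to -0.08). The central 95% of all genes lay between -0.44 and 0.39 in M-BMDM and between -0.39 and 0.33 in GM-BMDM. Arg1 lay just outside in each, and Nos2, under the required level, further outside in GM-BMDM. Socs3, the feedback inhibitor that IL6 signalling induces, had 102 and 99.3 scaled CPM in M-BMDM without and with 3 h of IL6, and 142 and 141 in GM-BMDM.

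The 3 h ratios of the macrophage types were then set against each other. Arg1 differed by -0.88 (GM-BMDM minus M-BMDM, 95% counting interval -1.24 to -0.52), outside the range of -0.57 to 0.61 that held the central 95% of 10582 genes. Its counts were 105 and 171 in M-BMDM without and with IL6, and 2188 and 1377 in GM-BMDM. The same counts gave the 0.88 between the ratios of GM-BMDM to M-BMDM above, so these are the same quantity. Asl (-0.32, -0.51 to -0.13), Ass1 (-0.20, -0.29 to -0.10), Acod1 (0.11, 0.06 to 0.15) and Slc7a2 (0.11, 0.04 to 0.19) differed by more than counting error but within that range. Arg2, Nos2 and Odc1 had intervals that included 0, although Nos2, under the required level, was outside that range at -0.77 (-1.74 to 0.19).

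**Figure D3:**
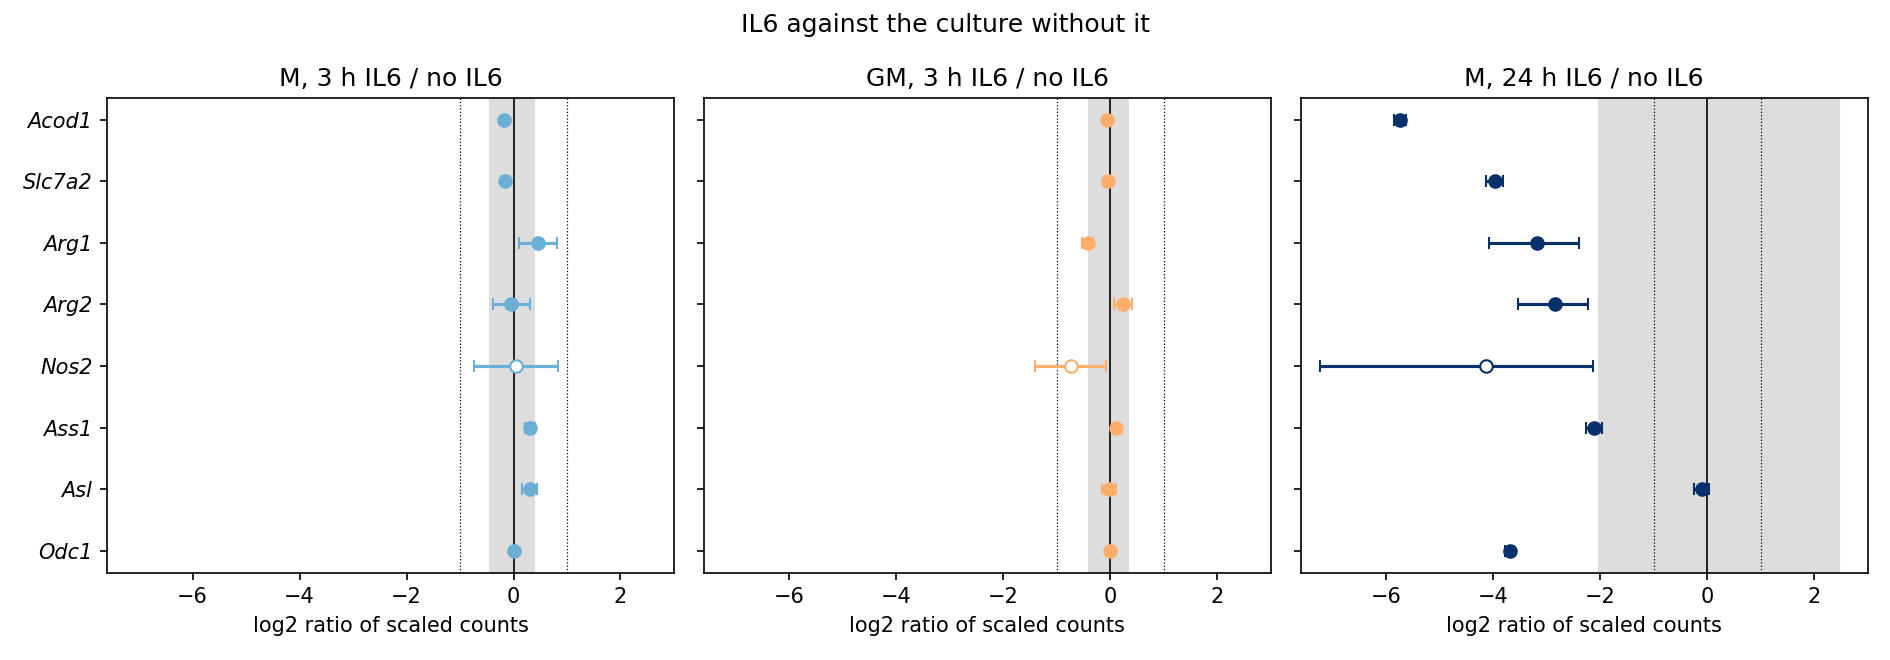
Log2 ratio of scaled counts in the library with IL6 over the culture without it, for M-BMDM at 3 h, GM-BMDM at 3 h and M-BMDM at 24 h, with 95% counting intervals; grey bands hold the central 95% of all genes with at least 5 scaled CPM, dotted lines mark 2-fold and open symbols a gene under that level. At 3 h no gene was counted, while at 24 h all genes but Asl lay below the band, from -2.11 for Ass1 to -5.74 for Acod1.

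At 24 h of IL6 most of these genes were far lower. In M-BMDM at 24 h against no IL6, 6 of 7 tested members were counted as lower and 0 as higher, where 8.93% of 10313 genes were lower and 11.5% higher. Acod1 was at -5.74 (-5.85 to -5.63), or 53.6-fold lower. Ranked with a prior count of 2, its ratio was the 10th lowest of all genes tested. Slc7a2 was at -3.97 (-4.14 to -3.81), Odc1 at -3.69 (-3.77 to -3.60), Arg1 at -3.18 (-4.07 to -2.39), Arg2 at -2.85 (-3.54 to -2.22) and Ass1 at -2.11 (-2.26 to -1.97). Nos2 had 2 counts against 27 (-4.13, -7.24 to -2.13) and stayed under the required level. Asl was at -0.10 (-0.24 to 0.04). With a prior count of 2 in each library, unlike the ratios just given, the median of the 7 tested members was -3.03. That of all genes tested was 0.02.

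The 3 h library served as another reference for the 24 h library. Against it the same 6 genes were counted as lower, where 8.59% of 10274 genes were lower and 11.7% higher. With total counts the calls over all genes were 1568 higher and 685 lower, in place of 1204 and 883, and the 6 genes were still lower. The ratios were -5.57 for Acod1, -3.81 for Slc7a2, -3.68 for Odc1, -3.64 for Arg1, -2.81 for Arg2 and -2.42 for Ass1. Compared with marrow, the 24 h library was still 4.71-fold higher in Acod1, 6.02-fold in Slc7a2 and 3.78-fold in Arg1 (15 counts and 4), whereas Ass1 was 1.66-fold higher in marrow. Asl was at 38.5 scaled CPM (36.1 to 41.1) at 24 h and 19.3 (17.5 to 21.1) in marrow. Arg2, at 0.996 scaled CPM (0.638 to 1.48) in the 24 h library and 13.8 (12.4 to 15.4) in marrow, and Odc1, at 48.3 (45.6 to 51.2) and 381 (373 to 389), were further below marrow than Ass1. No untreated culture of the same 24 h is among the 6 samples, so IL6 and time in culture cannot be told apart, and 1 library decides every one of these values. Socs3 was also lower in that library, at 7.60 scaled CPM.

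Around the 8 genes, 2 of 16 polyamine genes were lower at 24 h and 2 higher, near the share over all genes, of which 8.93% were lower and 11.5% higher. Srm (-1.86) and Smox, the spermine oxidase (-1.62), were lower with Odc1, while Sat1 (1.93) and Paox (1.55), which acetylate polyamines and oxidise the acetylated forms, were higher, and the other 12 were not counted. Sat1 went from 63.2 to 241 scaled CPM and Srm from 66.4 to 18.2. Among nitric oxide and cofactor genes, Gch1, the rate-limiting enzyme of tetrahydrobiopterin synthesis, was lower (80.5 to 15.0, log2 ratio -2.42), and the other 7 of 8 were not counted. Proliferation markers, at 288 scaled CPM without IL6 and 2033 at 24 h, differed in the opposite direction from Odc1, and their part in these ratios was not tested. Macrophage markers summed to 32822 scaled CPM in M-BMDM and 25929 at 24 h.

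Arginine transport and use gave 2 higher and 3 lower of 10 genes at 24 h, where 11.5% of all genes were higher and 8.93% lower. The transporters Slc7a1 (-1.41), the constitutive arginine carrier, and Slc7a7 (-1.30) were lower, as was Azin2 (-1.35), and Gatm, which takes arginine into creatine synthesis, was higher (26.7 to 96.7 scaled CPM, 1.86). Of 26 citric acid cycle genes 25 were not counted, and Slc25a10, the dicarboxylate carrier of mitochondria, was higher (1.21). Of 8 genes from ornithine to proline and glutamate, Aldh4a1 was higher (1.21) and 0 were lower. Of 14 transcription factors 4 were lower and 0 higher, namely Cebpb (236 to 22.0 scaled CPM, -3.42), Myc (-2.82), Hif1a (-2.67) and Nfkb1 (-1.67). Against the 3 h library these 4 were at -2.82, -2.83, -2.51 and -1.58.

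**Figure D4:**
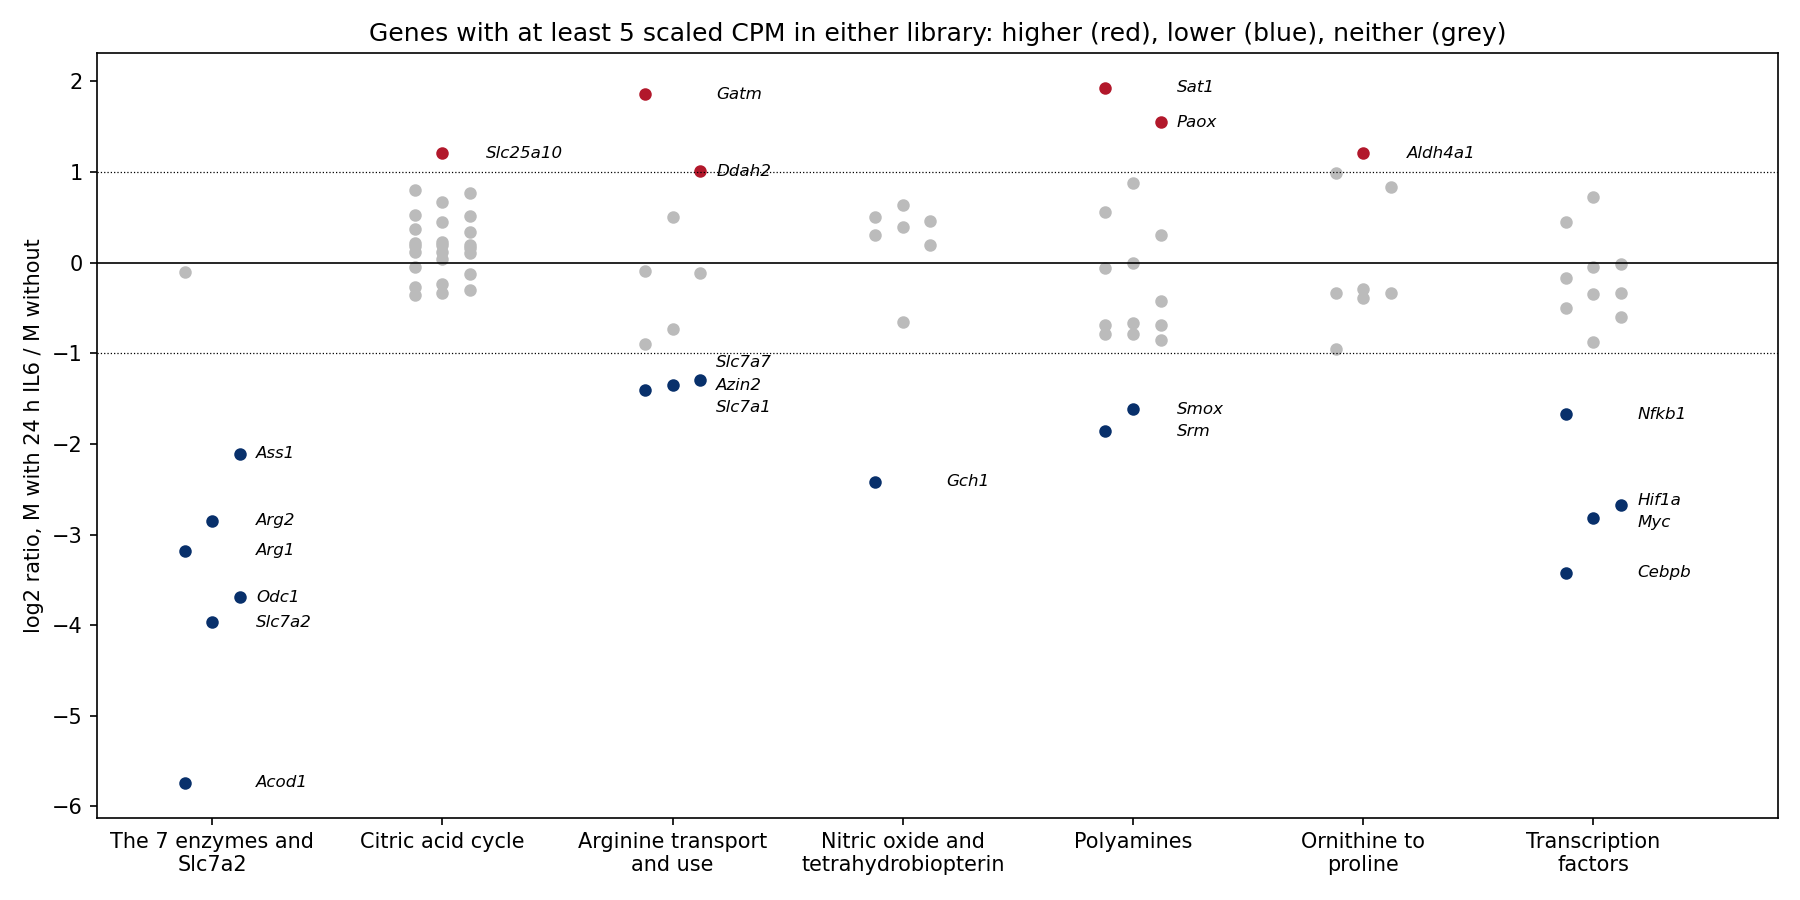
Log2 ratio of scaled counts, M-BMDM at 24 h of IL6 over M-BMDM without it, for the tested members and 6 lists of related genes, each point 1 gene with at least 5 scaled CPM in either library; dotted lines mark 2-fold, and genes counted as higher (red) or lower (blue) are named. The citric acid cycle list lies near 0 with Slc25a10 at 1.21, while Acod1, which draws on that cycle, lies at -5.74.

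The genes whose profiles over the 6 libraries were nearest to each member were found by the root-mean-square difference of centred log2(scaled CPM + 1). All points share the same 6 libraries, so these are descriptions. Nearest to Acod1 were Tgm2, a transglutaminase (difference 0.72), Sdc1, a syndecan (0.94), and Cav1, caveolin (1.08). Tgm2 had 2897 scaled CPM in M-BMDM and 201 at 24 h of IL6. Nearest to Slc7a2 were the chemokine Cxcl3 (0.57), the mucin-type glycoprotein Pdpn (0.73) and the adhesion protein Flrt3 (0.78). Nearest to Arg1 were the survival genes Bcl2a1a (0.30) and Bcl2a1d (0.34), near-identical paralogs whose counts are uncertain, and the chemokine Ccl22 (0.36).

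For Arg2 the nearest were Csf1, which encodes M-CSF (0.28), H2-DMa of MHC class II loading (0.29) and the nicotinic acid receptor Hcar2 (0.31). Ass1 was matched most closely by the kinase Src (0.12), then by Tma16 (0.24) and the Wnt receptor Fzd1 (0.25). Odc1 was nearest to the receptor Gpr35 (0.30), the phosphatase Ptprf (0.36) and the acyltransferase Gpat3 (0.37). Nos2 was nearest to Taf4b (0.13), Fcgr4 (0.14) and F11r (0.16), values that are small because its own level is near 0 on this scale. Among the members themselves the nearest pairs were Nos2 and Asl (0.45), Arg2 and Ass1 (0.88), Nos2 and Ass1 (0.95) and Arg1 and Ass1 (1.03), and the farthest were Slc7a2 and Odc1 (3.05). The same low level of Nos2 bears on its pairs with Asl and Ass1. The Pearson correlation of the same values was 0.77 for Nos2 and Asl and 0.97 for Arg1 and Ass1.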

How the data were processed

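The table held expected counts per gene, deposited by the authors without scaling, in which 24.7% to 27.7% of the values above 0 in each library were not whole. It also held a gene length in bases, deposited by the authors, which gave the values per kilobase. Per the submitters' processing notes, the build was GRCm38 and the tools were HISAT2, StringTie and DESeq2, with versions, roles and strand setting not given in the sources used here. Counts were rounded, and 742 of 56278 rows without a gene name, with 0.240% to 0.522% of the counts, were left out. Positions came from GENCODE M21 (GRCm38).

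TMM factors came from edgeR 4.0.16 in R 4.3.3, over the 14719 genes with at least 1 CPM in 1 library. Ratios have exact 95% Clopper-Pearson intervals from the conditional binomial distribution (scipy 1.17.1), and the 3 h differences have Poisson intervals. The labels name no molecular identifiers, so PCR copies may be counted more than once, and intervals and bounds cover counting error only. No test across samples was made, since each group had 1 library. List medians and the ranks of ratios used a prior count of 2. The call rule was tested on simulated counts drawn with Poisson error only and with true changes of 4-fold. Such counts hold no variation between cultures, so the simulation cannot show how the rule fares with it. Members and lists were chosen with earlier results of these data known. All 8 members are named in each comparison, together with at most 4 counted genes per list and, for each member that spans at least 4-fold, the 3 genes nearest in profile with at least 10 scaled CPM, predicted genes left out. Of the listed genes, 1 is not reported here. Alternatives were DESeq2 1.42.0 size factors, total counts, upper-quartile factors, no filter, fold limits of 1.5 and 3, a level limit of 1 CPM and no counting interval.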

Additional observations from a re-analysis of the deposited data

Results flagged for a closer look

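After 3 h of IL6, Arg1 was higher in M-BMDM and lower in GM-BMDM. Its log2 ratio was 0.46 in M-BMDM and -0.42 in GM-BMDM, each with a counting interval clear of 0, a difference of -0.88 (GM-BMDM minus M-BMDM). This is the difference already given above, not a further observation. Neither ratio reached 2-fold. With 1 library per group, the difference was not tested against a spread between samples.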

How the results depend on the processing

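Each comparison's count of members was recomputed under 8 alternatives. Of these 64 counts, 63 stayed within 1.5 times the reported one, and the exception was M-BMDM against BM with a fold limit of 3, where 3 members were counted. Only the number was compared, so the genes behind it could change. M-BMDM against BM with total counts still gave 5, but as 4 higher and 1 lower. Upper-quartile factors added Arg2 (1.01) in GM-BMDM against BM, which made 7. Counts for 3 h of IL6 against none were 0 throughout. Of 256 member ratios recomputed with other scalings, 36 moved by more than their counting interval, most of them with total counts, and no counted ratio changed sign. Asl at 24 h against M-BMDM, which was not counted, went from -0.10 to 0.04 with total counts. Total counts put the median ratio of all genes at -0.12 for M-BMDM and -0.37 for GM-BMDM against BM, and at 0.16 for 24 h against M-BMDM. A level limit of 1 CPM added Nos2 to the genes counted as lower at 24 h, which made 7 against either M-CSF library, and to those counted as higher than BM, which made 6 in M-BMDM and 6 in GM-BMDM. Of 32 differences between the 3 h ratios, 1 moved, that of Acod1 with total counts (0.16). Depth limits Nos2 in every library, and Arg1 in BM with 4 counts. No paired analysis was possible because each group had 1 library.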
